A study of Mus musculus with 18 samples.

Results

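The genes described here are 8 regulators of the sterol regulatory element binding proteins (SREBPs), namely *Srebf1*, *Srebf2*, *Scap*, *Insig1*, *Insig2*, *Stard4*, *Mbtps1* and *Mbtps2*. They were chosen by name, all 8 were found among the 52636 genes of the deposited count table, and all 8 passed the filter on low counts in every comparison. RNA-seq was carried out on retinal pigment epithelium (RPE) of C57BL/6 mice at postnatal day 14. There were 18 libraries in 6 groups of 3, and each library held the RPE of both eyes of 1 mouse. Uninjected mice (label Uninjected) were compared with mice given AAV8 vectors under the retina on the day of birth. The *Best1* promoter, which is active in RPE cells, drove every insert. The GFP group received the control transgene, and the nSREBP2 group (label nSrebp2) received the N-terminal, nuclear form of mouse SREBP2, which needs no cleavage to act. The ctrl sh group (label Laczsh) received a hairpin against *lacZ*, the only control hairpin of the series, and the *Lrp2* sh1 and *Lrp2* sh2 groups (labels Lrp2sh1 and Lrp2sh2) received separate hairpins against *Lrp2*, which encodes the endocytic receptor megalin. RPE cells were loosened from the eyecup with papain, so RNA of neighbouring cells can be present, and in such bulk samples fewer cells of a type and less RNA per cell cannot be told apart.

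SREBPs are made as membrane proteins of the endoplasmic reticulum, where SCAP binds and escorts them and the INSIG proteins hold the complex back when sterols are plentiful. When sterols run low, COPII vesicles carry SCAP and SREBP to the Golgi, site-1 protease (*Mbtps1*) and then site-2 protease (*Mbtps2*) cut the SREBP, and the released fragment enters the nucleus and activates genes of sterol and fatty acid synthesis. *Insig1* is itself a well-known SREBP target, *Stard4* encodes a carrier of cholesterol between membranes, and the RPE handles a large load of lipid because it takes up shed photoreceptor outer segments.

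Total counts ranged from 8921885 to 10232105 in the Uninjected libraries, from 11092959 to 13231479 in GFP and from 11340405 to 11439251 in nSREBP2. They ranged from 11814113 to 13696934 in ctrl sh, from 12188538 to 12655566 in *Lrp2* sh1 and from 12101954 to 12251001 in *Lrp2* sh2. The lowest count of any of the 8 genes was 198 (*Stard4*, Uninjected replicate 3), so every level of these 8 genes lies well above the limit of 3 counts that a count of 0 allows. Levels are given in CPM, the reads of a gene for every 1e+06 reads counted, after TMM normalization of the libraries. The sex of the mice was not balanced. Counts of Y-linked genes were 2770, 2806 and 2901 in the nSREBP2 libraries but 2, 2 and 4 in the GFP libraries, so nSREBP2 and GFP differed in sex as well as in insert. Of the other libraries, Uninjected replicate 3 (2958 Y-linked counts) and *Lrp2* sh2 replicates 2 and 3 (3630 and 3625) came from males. The labelled tissue was checked against 14 RPE genes, of which *Pmel* had the highest mean over the 18 libraries and none was at 0 in any library. Their summed level was 8409, 12967 and 15931 CPM in the Uninjected libraries and ranged from 6728 to 10732 CPM in the injected ones. Pigment genes carried this sum, and the means of some other RPE genes were far lower in the injected groups. Mean *Rgr* was 1494 CPM in Uninjected, 19.2 in GFP, 20.1 in nSREBP2, 163 in ctrl sh, 135 in *Lrp2* sh1 and 31.5 in *Lrp2* sh2. Mean *Lrat* was 620, 25.4, 9.13, 172, 94.0 and 7.84 CPM and mean *Rlbp1* 490, 64.4, 50.2, 155, 157 and 62.4 CPM in the same order, with wide spreads in Uninjected and ctrl sh.

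*Lrp2*, the gene targeted by the hairpins, was measured first. It stood at 29.7, 42.8 and 38.2 CPM in *Lrp2* sh1 and at 37.8, 34.5 and 43.9 CPM in *Lrp2* sh2, against 167, 87.7 and 100 CPM in ctrl sh. Both hairpin groups lay below every ctrl sh library, with a log2 fold change of -1.68 ± 0.22 (SE, adjusted *P* = 0.00328) for sh1 and of -1.60 ± 0.21 (adjusted *P* = 0.00109) for sh2. Between the hairpins *Lrp2* differed by 0.08 ± 0.13 (adjusted *P* = 0.728). It was also lower in nSREBP2 (38.1, 29.8 and 25.3 CPM) than in GFP (175, 160 and 87.6 CPM), with a log2 fold change of -2.18 ± 0.24 (adjusted *P* = 0.000233).

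All 8 genes were expressed in the libraries of uninjected RPE. In these libraries 10 fibroblast and sclera genes summed to 30959, 31047 and 19018 CPM, above the sums of the 14 RPE genes. Which cells held the RNA of the 8 genes was not tested. Per kilobase of exon, *Mbtps1* had the highest level of the 8 at 20.7 ± 1.42 CPM per kb (SD, n = 3), followed by *Srebf1* at 18.4 ± 2.90, *Insig1* at 17.4 ± 1.90 and *Insig2* at 17.2 ± 4.19 CPM per kb. *Srebf2* followed at 13.7 ± 1.89 and *Scap* at 10.5 ± 1.57 CPM per kb. The lowest levels were those of *Stard4* at 4.48 ± 0.570 and *Mbtps2* at 3.37 ± 0.355 CPM per kb. In this order, each gene from *Mbtps1* to *Insig2* lay within 1 SD (the larger of the 2) of the next. Some counts are uncertain because exons overlap those of other genes. For *Mbtps2*, 2867 of 10105 exon bases are shared with *Yy2* on the same strand, and for *Scap*, 985 of 7443 exon bases face a gene on the opposite strand. *Srebf1* shares 66 of 5634 exon bases with a microRNA gene and 109 with a gene on the opposite strand, and counts per gene do not separate its SREBP1a and SREBP1c transcripts. Over the 6 groups, 7 of the 8 genes varied beyond the spread between replicates in edgeR's F test, against 48.7% of all genes tested, and the exception was *Insig2* (adjusted *P* = 0.583).

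**Figure D1:**
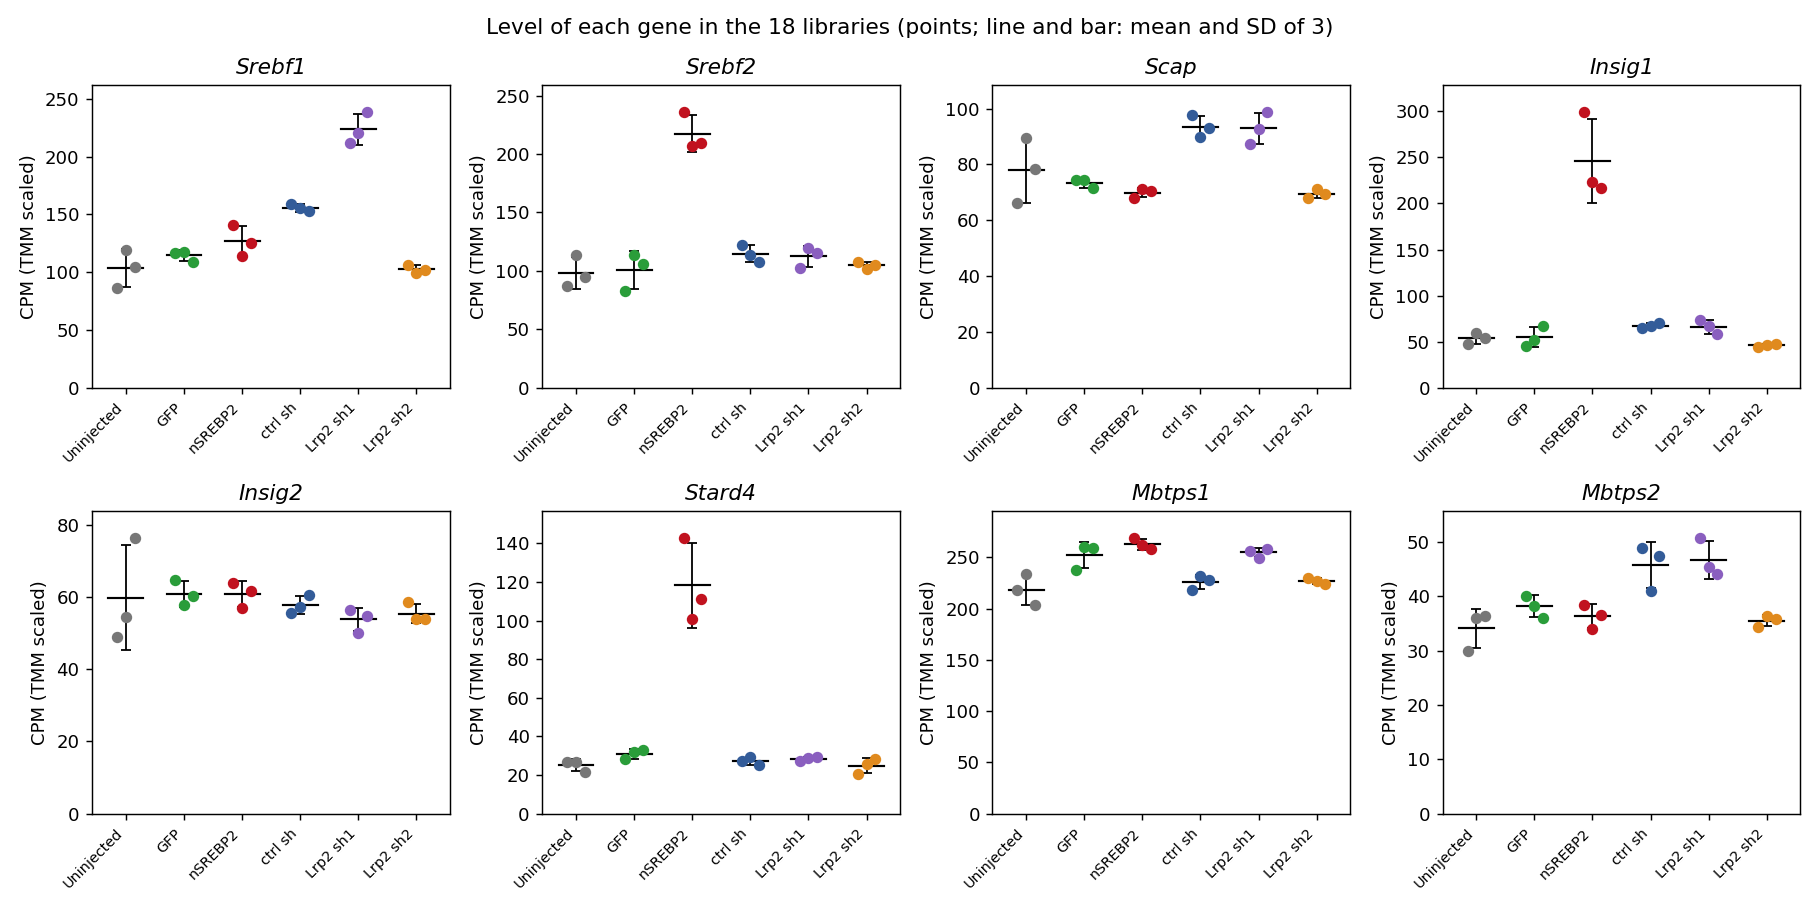
Level of each of the 8 genes (y axis, CPM) in the 18 libraries, by group (x axis), with points for libraries and lines and bars for the mean and SD of 3 libraries. *Insig1*, *Stard4* and *Srebf2* are highest in the nSREBP2 libraries, *Srebf1* is highest in *Lrp2* sh1 at 212 to 238 CPM, and *Insig2* shows no ordering of the groups. Counts of *Srebf2* in nSREBP2 cannot be separated from RNA of the vector.

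Overexpression of nSREBP2 asks what happens to the regulators when the nuclear factor is supplied without its precursor. *Insig1*, *Stard4* and *Srebf2* had higher counts, and the other 5 genes did not pass the test. The vector carried mouse *Srebf2* coding sequence, so the higher *Srebf2* count cannot be read as a response of the mouse gene. Passing means an adjusted *P* under 0.05 in edgeR's quasi-likelihood test, with adjustment over all genes tested. The 3 of 8 that passed were all higher, in a comparison where 12.6% of all genes were called higher and 8.47% lower. The groups did not overlap for 4 of the 8 genes, against 37.5% of all genes tested. *Insig1*, which encodes the retention factor, stood at 299, 223 and 217 CPM in the 3 nSREBP2 libraries and at 45.8, 52.4 and 67.5 CPM in the 3 GFP libraries. Every nSREBP2 library was more than 3 times the highest GFP library, and the groups did not overlap. The fold was 4.43 (log2 fold change 2.15 ± 0.16, SE, adjusted *P* = 2.03e-05). *Stard4*, the cholesterol carrier, was at 143, 101 and 111 CPM in nSREBP2 and at 28.1, 31.9 and 32.9 CPM in GFP. Again the lowest nSREBP2 library lay far above the highest GFP library, with a fold of 3.80 (log2 fold change 1.93 ± 0.12, adjusted *P* = 1.14e-05).

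*Srebf2* itself was at 236, 207 and 209 CPM in nSREBP2 and at 82.9, 113 and 106 CPM in GFP. The groups did not overlap, and the fold was 2.15 (log2 fold change 1.10 ± 0.11, adjusted *P* = 0.000121). The vector carried mouse *Srebf2* coding sequence, so counts of the vector's RNA and of the mouse gene's RNA cannot be told apart, and the value is not a measure of the endogenous gene. The related factor gene *Srebf1* was at 141, 114 and 125 CPM in nSREBP2 and at 117, 118 and 109 CPM in GFP. Its groups overlapped, and its log2 fold change of 0.14 ± 0.08 did not pass (adjusted *P* = 0.252).

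The escort, the second INSIG and the proteases stayed within narrow ranges. *Scap* was at 68.0, 71.3 and 70.6 CPM in nSREBP2 and at 74.4, 74.5 and 71.4 CPM in GFP. The 3 nSREBP2 libraries were the lower ones, by a margin of less than 1 CPM at the edge, and the log2 fold change of -0.07 ± 0.06 did not pass (adjusted *P* = 0.469). *Insig2* was at 64.0, 57.0 and 61.8 CPM in nSREBP2 and at 64.7, 57.7 and 60.4 CPM in GFP. The group means of *Insig2* were both 60.9 CPM, in contrast to *Insig1*, and its log2 fold change was 0.00 ± 0.07 (adjusted *P* = 0.978). For the proteases, *Mbtps1* was at 269, 262 and 258 CPM in nSREBP2 and at 238, 260 and 259 CPM in GFP (log2 fold change 0.05 ± 0.06, adjusted *P* = 0.605). *Mbtps2*, on the X chromosome, was at 38.5, 34.0 and 36.6 CPM in nSREBP2 and at 40.1, 38.2 and 36.0 CPM in GFP (log2 fold change -0.07 ± 0.08, adjusted *P* = 0.577). Both proteases had overlapping groups.

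Since nSREBP2 mice were male and GFP mice female, the comparison was also fitted on all 18 libraries with sex as a term, which rests on the sexes mixed in Uninjected and *Lrp2* sh2. The log2 fold changes were then 2.10 for *Insig1*, 1.88 for *Stard4* and 1.16 for *Srebf2*, and the same 3 genes passed. Of the genes that did not pass in either fit, *Insig2* moved from 0.00 to -0.23, *Mbtps2* from -0.07 to -0.19, *Mbtps1* from 0.05 to 0.13 and *Scap* from -0.07 to -0.11. Markers of other cells also moved between nSREBP2 and GFP. Of 10 fibroblast and sclera genes, 8 were higher, with a summed level of 88335, 72612 and 81554 CPM in nSREBP2 and of 35271, 40415 and 44904 CPM in GFP, with *Col1a1* the most abundant over the 18 libraries, as are the genes named for the lists below. All 10 macrophage genes were higher, with sums of 625, 585 and 583 CPM against 295, 313 and 349 CPM (most abundant *Csf1r*). Of 10 endothelial genes, 8 were lower, with sums of 1635, 1580 and 1543 CPM against 2047, 2046 and 2588 CPM (most abundant *Kdr*). Of 14 rod photoreceptor genes, 3 were higher, with sums of 377, 311 and 261 CPM against 41.9, 96.0 and 242 CPM, and 4 of 6 melanocyte genes were lower, with sums of 1079, 967 and 938 CPM against 1163, 1213 and 1228 CPM. Of the 14 RPE genes, 3 were lower and 1 higher, with sums of 10186, 9010 and 7702 CPM against 8827, 9546 and 9361 CPM. Of 15 genes of other retinal cells, 14 were tested, 5 were higher and 3 lower, with sums over the 15 of 896, 778 and 940 CPM against 1137, 1318 and 1066 CPM (most abundant *Glul*). Of 6 muscle genes, 5 were tested and 1 was lower, with sums over the 6 of 16.5, 19.6 and 29.3 CPM against 15.5, 11.1 and 51.6 CPM (most abundant *Acta1*). *Gngt1* of the rod list was at 0 in GFP replicate 1 and *Gad1* of the retinal list in GFP replicate 2, and *Myh4* of the muscle list in all 3 nSREBP2 libraries. None of the other markers named here was at 0 in these libraries. Their part in the changes of *Insig1*, *Stard4* and *Srebf2* was not tested.

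Knockdown with *Lrp2* sh1 asks whether loss of an uptake receptor moves the same genes. *Srebf1* was higher and the other 7 genes did not pass, so that 1 of 8 passed in a comparison where 3.06% of all genes were higher and 2.28% lower. No overlap between the groups was seen for 2 of the 8 genes, against 25.1% of all genes tested. *Srebf1* stood at 212, 220 and 238 CPM in *Lrp2* sh1 and at 159, 155 and 153 CPM in ctrl sh. All 3 *Lrp2* sh1 libraries exceeded all ctrl sh libraries, and they were the highest of the 18 libraries for this gene. The fold was 1.43 (log2 fold change 0.52 ± 0.06, SE, adjusted *P* = 0.00184). *Srebf2* was at 102, 120 and 116 CPM in *Lrp2* sh1 and at 122, 114 and 108 CPM in ctrl sh, with overlapping groups. *Insig1* was at 73.2, 67.6 and 58.3 CPM against 64.8, 67.0 and 70.9 CPM, and *Stard4* at 27.3, 28.9 and 29.2 CPM against 27.4, 29.4 and 25.3 CPM. Neither of these nSREBP2-responsive genes separated the groups (adjusted *P* = 0.910 and 0.786).

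*Scap* was at 87.5, 92.6 and 98.6 CPM in *Lrp2* sh1 and at 97.7, 89.7 and 93.2 CPM in ctrl sh, and *Insig2* at 56.5, 50.2 and 54.8 CPM against 55.6, 57.4 and 60.5 CPM. Both overlapped between the groups. The site-1 protease gene *Mbtps1* was at 256, 250 and 258 CPM in *Lrp2* sh1 and at 218, 232 and 228 CPM in ctrl sh. The groups of *Mbtps1* did not overlap, but the log2 fold change of 0.17 ± 0.06 did not pass over all genes tested (adjusted *P* = 0.114). *Mbtps2* was at 50.6, 45.3 and 44.0 CPM against 48.8, 41.0 and 47.5 CPM (adjusted *P* = 0.897). In 6 of the marker lists 1 gene was lower with sh1 than with ctrl sh. These were the lists of RPE (1 of 14, with sums of 8459, 7769 and 8574 CPM in sh1 and of 10732, 8670 and 8729 CPM in ctrl sh), of other retinal cells (1 of 13 tested, 1166, 1247 and 1237 CPM against 1476, 1411 and 1459 CPM) and of endothelium (1 of 10, 2162, 2138 and 2024 CPM against 2326, 2294 and 2203 CPM). The others were those of macrophages (1 of 10, 275, 268 and 304 CPM against 321, 340 and 331 CPM), of red blood cells (1 of 6, 604, 604 and 482 CPM against 648, 813 and 708 CPM) and of melanocytes (1 of 6, 996, 864 and 965 CPM against 1110, 1143 and 1113 CPM). In the retinal list *Gad1* was at 0 in sh1 replicates 1 and 2 and in ctrl sh replicates 2 and 3, and *Grm6* in sh1 replicate 2. The part of these cells in the higher level of *Srebf1* was not tested.

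*Lrp2* sh2 gave another picture. *Srebf1*, *Insig1*, *Scap* and *Mbtps2* were lower than in ctrl sh and the other 4 genes did not pass, in a comparison where 9.48% of all genes were called lower and 8.59% higher. For 4 of the 8 genes the groups did not overlap, against 36.8% of all genes tested. *Srebf1* was at 107, 99.3 and 102 CPM in *Lrp2* sh2, below every ctrl sh library, with a log2 fold change of -0.59 ± 0.06 (SE, adjusted *P* = 0.000301). *Insig1* was at 44.7, 46.4 and 47.4 CPM, likewise below every ctrl sh library, with a log2 fold change of -0.54 ± 0.07 (adjusted *P* = 0.000793). *Scap* was at 68.1, 71.4 and 69.3 CPM, with a log2 fold change of -0.42 ± 0.06 (adjusted *P* = 0.00222). The 3 sh2 values of each of these genes lay close together, within 8 CPM of each other. *Mbtps2* was at 34.3, 36.4 and 35.7 CPM, also without overlap, with a log2 fold change of -0.36 ± 0.08 (adjusted *P* = 0.0157). It no longer passed without ctrl sh replicate 3 (log2 fold change -0.33, adjusted *P* = 0.0669) or without *Lrp2* sh2 replicate 1 (log2 fold change -0.34, adjusted *P* = 0.0508). Sex was unbalanced, since sh2 replicates 2 and 3 came from males and the ctrl sh libraries from females. In edgeR on all 18 libraries with sex as a term, the same 4 genes passed. The adjusted *P* was then 0.00267 for *Srebf1*, 0.0365 for *Insig1*, 0.00801 for *Scap* and 0.0105 for *Mbtps2*.

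The remaining genes overlapped between *Lrp2* sh2 and ctrl sh. *Srebf2* was at 108, 102 and 105 CPM in sh2 (adjusted *P* = 0.261), and *Stard4* was at 20.7, 25.7 and 28.4 CPM (adjusted *P* = 0.526). *Insig2* was at 58.6, 53.9 and 53.8 CPM (adjusted *P* = 0.680), and *Mbtps1* at 230, 227 and 224 CPM (adjusted *P* = 0.888). Markers of other cells moved with sh2 as well. Of 14 rod photoreceptor genes, 12 were higher, with a summed level of 365, 105 and 113 CPM in sh2 and of 44.2, 57.9 and 46.3 CPM in ctrl sh. Over the 18 libraries *Rp1* was the most abundant of them, and *Gngt1* was at 0 in ctrl sh replicate 1. Of 10 endothelial genes, 9 were lower, with sums of 1449, 1515 and 1454 CPM against 2326, 2294 and 2203 CPM. Of 6 melanocyte genes, 5 were lower, with sums of 907, 809 and 775 CPM against 1110, 1143 and 1113 CPM (most abundant *Ednrb*). All 6 red blood cell genes were lower, with sums of 354, 435 and 445 CPM against 648, 813 and 708 CPM (most abundant *Hbb-bs*). Of the 14 RPE genes, 5 were lower, with sums of 7857, 6978 and 6728 CPM against 10732, 8670 and 8729 CPM. Of 15 genes of other retinal cells, 14 were tested, 4 were higher and 2 lower, with sums over the 15 of 1103, 978 and 1120 CPM against 1476, 1411 and 1459 CPM. Of 10 fibroblast and sclera genes, 3 were higher, with sums of 45545, 51766 and 43498 CPM against 34003, 47420 and 48212 CPM, and 1 of 10 macrophage genes was higher, with sums of 458, 366 and 347 CPM against 321, 340 and 331 CPM. The part of these cells in the lower levels of *Srebf1*, *Insig1*, *Scap* and *Mbtps2* was not tested.

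The hairpins share their ctrl sh libraries, so they were also compared with each other directly. *Srebf1*, *Insig1*, *Scap* and *Mbtps2* were lower in sh2 than in sh1, against 12.3% of all genes lower and 10.2% higher. Groups without overlap were found for 5 of the 8 genes, against 39.0% of all genes tested. *Srebf1* differed most of the 8, with every sh2 library below every sh1 library, a fold of 0.462 and a log2 difference of -1.12 ± 0.06 (SE, adjusted *P* = 3.21e-06). *Insig1* differed by -0.52 ± 0.08 (adjusted *P* = 0.00191), *Scap* by -0.41 ± 0.06 (adjusted *P* = 0.00148) and *Mbtps2* by -0.39 ± 0.07 (adjusted *P* = 0.00428). Sex was unbalanced here too, since the sh1 libraries all came from females. *Mbtps1*, whose groups did not overlap, fell just short at -0.16 ± 0.05 (adjusted *P* = 0.0508). Rod genes differed here as well, with 12 of 14 higher in sh2 and sums of 35.1, 40.4 and 70.1 CPM in sh1, and all 10 endothelial genes were lower in sh2, with sums of 2162, 2138 and 2024 CPM in sh1. Of the 14 RPE genes, 6 were lower in sh2, with sums of 8459, 7769 and 8574 CPM in sh1. Of 10 macrophage genes, 6 were higher in sh2, with sums of 458, 366 and 347 CPM in sh2 and of 275, 268 and 304 CPM in sh1. Of 6 red blood cell genes, 3 were lower, with sums of 604, 604 and 482 CPM in sh1, and 1 of 6 melanocyte genes was lower, with sums of 996, 864 and 965 CPM in sh1. Of 14 tested genes of other retinal cells, 4 were higher in sh2 and 2 lower, with sums of 1166, 1247 and 1237 CPM in sh1, and 2 of 9 tested fibroblast and sclera genes were higher, with sums over the 10 of 45287, 54732 and 52326 CPM in sh1. *Gngt1* was at 0 in sh1 replicate 1 and *Cnga1* in sh1 replicate 2, beside the zeros of the retinal list given above. The part of these cells in the differences between the hairpins was not tested.

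**Figure D2:**
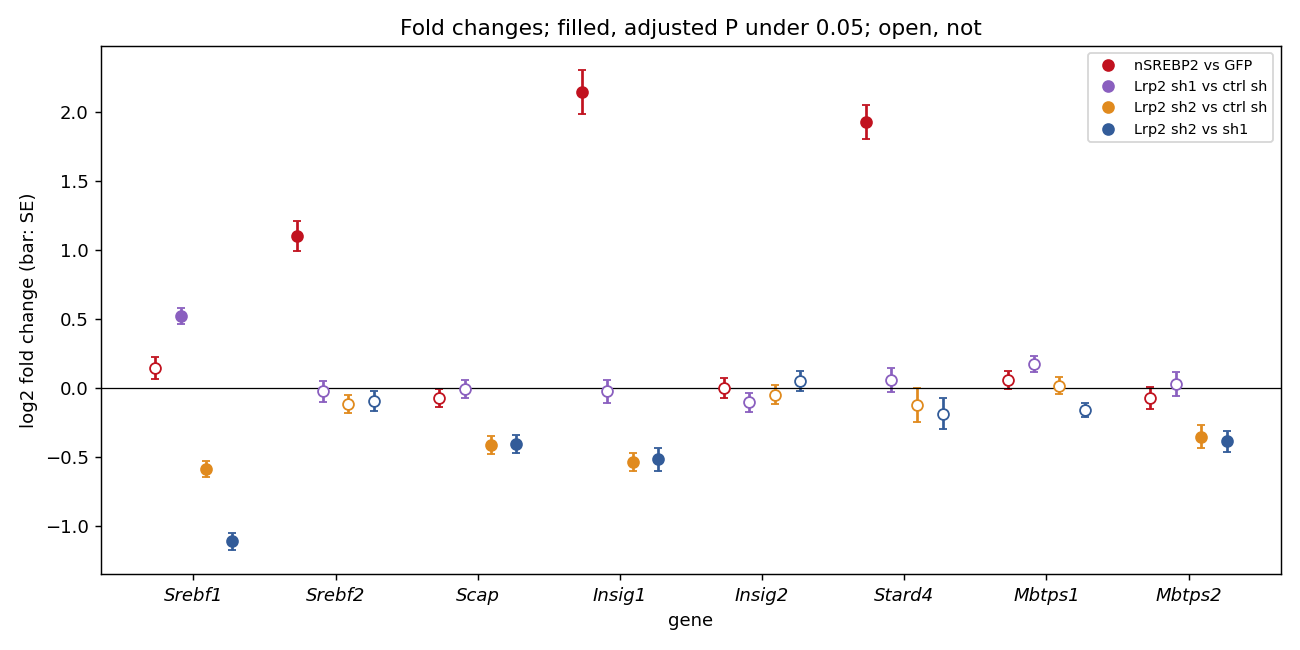
Log2 fold change (y axis, with SE as bars) of the 8 genes (x axis) in 4 comparisons, filled where the adjusted *P* was under 0.05. *Insig1* (2.15), *Stard4* (1.93) and *Srebf2* (1.10) are the filled points above 1 for nSREBP2, and *Srebf1* lies above 0 for *Lrp2* sh1 and below 0 for *Lrp2* sh2. The *Srebf2* point for nSREBP2 cannot be separated from RNA of the vector.

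The vectors with control inserts were set against uninjected eyes to show the background of injection. With GFP, 0 of 8 genes passed in edgeR's quasi-likelihood test or in DESeq2. By edgeR's adjusted *P*, 0.662% of all genes were higher and 1.82% lower. In the same test 2 of the 8 had an unadjusted *P* under 0.05, a limit at which no share of all genes is given here. *Stard4* was at 26.8, 26.9 and 21.3 CPM in Uninjected, below each GFP library, and *Mbtps1* was at 218, 234 and 204 CPM, also below each GFP library. Their log2 fold changes of 0.29 ± 0.12 and 0.19 ± 0.08 did not pass (adjusted *P* = 0.230 and 0.248). They were the 2 of 8 genes without overlap between GFP and Uninjected, against 25.7% of all genes tested. With ctrl sh, *Srebf1* was higher and the other 7 genes did not pass, against 3.13% of all genes higher and 3.37% lower. Between ctrl sh and Uninjected 4 of the 8 genes did not overlap, against 32.2% of all genes tested. *Srebf1* was at 86.7, 119 and 105 CPM in Uninjected, and all ctrl sh libraries lay above these values (log2 fold change 0.56 ± 0.11, adjusted *P* = 0.0223). This call was lost without Uninjected replicate 3 (log2 fold change 0.58, adjusted *P* = 0.0606) and without ctrl sh replicate 1, 2 or 3 (0.56, 0.57 and 0.58, adjusted *P* = 0.0515, 0.0935 and 0.0801), although its size stayed the same. Of 14 RPE genes, 6 were lower in GFP than in Uninjected (median log2 fold change over the 14 of -0.71). With ctrl sh the median was -0.59, but 0 of 14 passed in edgeR or in DESeq2. By edgeR, 6 of the 14 had an unadjusted *P* under 0.05, again without a share of all genes at that limit. With GFP, 2 of 12 tested rod genes were higher, with sums over the 14 of 36.5, 46.6 and 49.8 CPM in Uninjected, and 1 of 10 macrophage genes was lower, with sums of 364, 416 and 370 CPM in Uninjected. With ctrl sh, 1 macrophage gene and 2 of 13 tested genes of other retinal cells were lower, the latter with sums over the 15 of 1018, 1391 and 1361 CPM in Uninjected. *Gngt1* and *Grm6* were at 0 in Uninjected replicate 1, *Grm6* and *Gad1* in replicate 2 and *Cnga1* in replicate 3. The part of these cells in the levels of the 8 genes was not tested.

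The genes that were lower with sh2 had their means in ctrl sh above those in Uninjected, with only *Srebf1* passing in the fit used for each comparison. *Insig1* was at 48.0, 59.8 and 53.9 CPM in Uninjected, below every ctrl sh library (log2 fold change 0.30 ± 0.09, adjusted *P* = 0.0810). *Mbtps2* was at 30.0, 36.0 and 36.3 CPM in Uninjected, also below every ctrl sh library (log2 fold change 0.40 ± 0.11, adjusted *P* = 0.0624). *Mbtps2* passed with DESeq2 (adjusted *P* = 0.0408) and in edgeR without the filter (0.0326). It also passed in edgeR with all 18 libraries (0.00506) and with sex as a term (0.00545). *Scap* was at 66.1, 89.5 and 78.3 CPM in Uninjected, whose highest library came within 1 CPM of the lowest ctrl sh library (log2 fold change 0.24 ± 0.10, adjusted *P* = 0.187). *Scap* passed in edgeR with all 18 libraries (adjusted *P* = 0.0491). The mean of *Srebf1* was 104 ± 16.4 CPM in Uninjected, 156 ± 3.26 in ctrl sh and 103 ± 3.69 in sh2 (SD, n = 3), so the sh2 mean lay within 1 SD of the Uninjected mean. The sh2 means of *Scap* (69.6 CPM) and *Mbtps2* (35.5 CPM) also lay within 1 SD of the Uninjected means (77.9 ± 11.7 and 34.1 ± 3.59 CPM). *Insig1* differed, since its sh2 libraries all lay below the lowest Uninjected library (means 46.2 ± 1.34 and 53.9 ± 5.89 CPM). The ctrl sh libraries enter both comparisons, and sh2 was not tested against Uninjected. *Insig2* and *Srebf2* were at 48.8, 54.4 and 76.3 CPM and at 87.2, 114 and 94.9 CPM in Uninjected, overlapping ctrl sh and GFP.

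The orders of the group means summarise these levels. For *Insig1*, *Stard4* and *Srebf2* the gap between nSREBP2 and the next group was 179, 87.2 and 103 CPM, against a larger SD of 45.6, 21.8 and 15.9 CPM in either group, and among the other groups of *Stard4* and *Srebf2* no neighbours differed beyond their spread. In *Srebf1* the order ran from *Lrp2* sh2 over Uninjected, GFP, nSREBP2 and ctrl sh to *Lrp2* sh1. Neighbours among the first 4 of these groups overlapped. Ctrl sh lay above nSREBP2 without overlap (gap 28.8 CPM, larger SD 13.4 CPM), as did sh1 above ctrl sh (67.7 and 13.4 CPM). The level of *Mbtps1* varied least, by a factor of 1.32 between its lowest and highest library, and those of *Stard4* and *Insig1* most, by factors of 6.90 and 6.68. When the effect of nSREBP2 was tested against that of a hairpin, 3 of the 8 genes differed from sh1 (9.75% of all genes did) and 4 from sh2 (5.63% of all genes). *Srebf2*, whose counts in nSREBP2 cannot be separated from RNA of the vector, is among them and among the 3 genes counted next. When the study's additional limit of an absolute log2 fold change above 1 was applied, the 3 genes higher in nSREBP2 than in GFP still passed (6.67% of all genes), as did *Srebf1* between the hairpins (5.13% of all genes). The genes that passed for sh1, sh2 and ctrl sh had changes smaller than this limit, which 0.994%, 4.76% and 2.39% of all genes passed, while for GFP 1.41% did.

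The pathway around the 8 genes was described with lists of its other parts. Of 20 enzymes of cholesterol synthesis, 20 were higher in nSREBP2 than in GFP, with a median log2 fold change of 1.75 against -0.02 over all genes tested, of which 12.6% were higher. The largest changes were those of *Tm7sf2* (6.33 to 40.6 CPM, log2 fold change 2.68), *Hsd17b7* (14.1 to 90.2 CPM, 2.67), *Idi1* (5.53 to 32.8 CPM, 2.55) and *Mvd* (5.85 to 30.1 CPM, 2.36), so the enzymes rose along with *Insig1* and *Stard4*. Of 14 genes of fatty acid synthesis and desaturation, 11 were higher (median 0.83), led by the desaturase gene *Scd1* (73.9 to 910 CPM, log2 fold change 3.62), *Acss2* (2.18), *Acly* (1.55) and *Fasn* (1.54). *Srebf1*, the factor gene best known for fatty acid synthesis, did not pass in the same comparison. Of the 11 COPII coat genes that carry SCAP and SREBP to the Golgi, 6 were higher by small amounts, with *Sec24d* at 0.50, *Sec23a* at 0.36, *Sec31a* at 0.34 and *Sar1a* at 0.34 on the log2 scale.

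Partners of SREBP, SCAP and INSIG, many of them with roles in retention or degradation, passed about as often as all genes did in nSREBP2, with 2 of 16 higher and 2 lower against 12.6% and 8.47% of all genes tested. The same shares apply to the lists that follow. *Tmem97* was higher (log2 fold change 1.04), as was the INSIG ligase gene *Rnf145* (0.27), and *2410131K14Rik*, which encodes SPRING1, a partner of site-1 protease that supports SREBP activation, was lower (46.7 to 28.4 CPM, -0.72). Of 8 other substrates of the proteases, 3 were higher, *Creb3l3* (1.03), *Creb3l1* (0.84) and *Creb3l2* (0.57), while the protease genes themselves did not pass. Of 15 chaperones and foldases of the endoplasmic reticulum, 3 were higher (*Manf* at 0.42, *Pdia6* at 0.27 and *Pdia4* at 0.24). Among 14 sterol transport genes, where *Stard4* has its relatives, 4 were higher and 2 lower, with *Npc2* at 0.48, *Stard5* at 0.30, *Star* at -0.48 and *Osbpl1a* at -0.32. Of 7 LXR receptors and targets, 2 were higher (*Lpcat3* at 1.11 and *Abcg1* at 0.58).

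**Figure D3:**
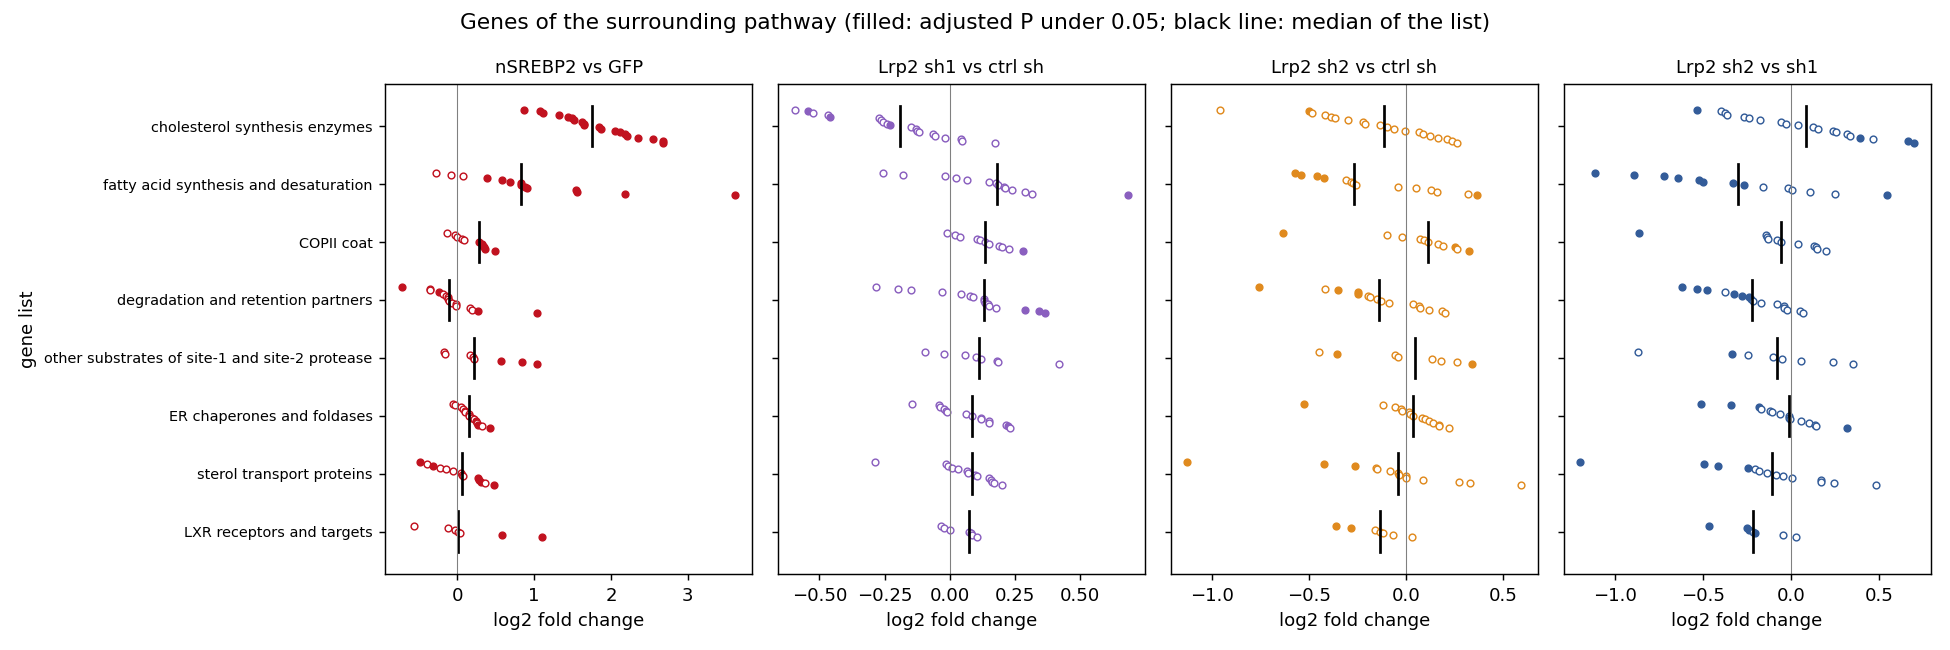
Log2 fold change (x axis, a scale of its own in each panel) of the genes of 8 pathway lists (y axis) in 4 comparisons, filled where the adjusted *P* was under 0.05, with a black line at the median of each list. All 20 cholesterol synthesis enzymes are filled and above 0 for nSREBP2, with a median of 1.75, and 3 of them are filled and below 0 for *Lrp2* sh1.

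Fewer of the cholesterol enzymes passed in the hairpin comparisons. With sh1, where *Srebf1* was higher, 3 of 20 enzymes were lower (2.28% of all genes were), with *Hsd17b7* (log2 fold change -0.54) and *Sqle* (-0.46) changed most, and the median was -0.19 against -0.01 over all genes tested. With sh2, where *Srebf1* was lower, 1 of 20 was lower (*Lss*, -0.50, median -0.11), against 9.48% of all genes. Directly between the hairpins, *Sqle* (0.70) and *Hsd17b7* (0.66) were higher in sh2 and *Fdft1* (-0.53) was lower. Of the 14 fatty acid genes, 8 were lower in sh2 than in sh1 and 1 higher, against 12.3% and 10.2% of all genes (median -0.30 against 0.01 over all genes tested). The largest of these were *Lpin1* (82.5 CPM in sh1 and 38.0 CPM in sh2, log2 difference -1.11), *Me1* (-0.89), *Elovl5* (-0.72) and *Fads2* (-0.65). Against ctrl sh, 1 of 14 was higher with sh1 (3.06% of all genes were). With sh2, 4 were lower and 1 higher, against 9.48% and 8.59% of all genes. *Lpin1* was higher with sh1 (0.68) and lower with sh2 (-0.42), as *Srebf1* was, and *Me1* (-0.57), *Elovl5* (-0.54) and *Fads2* (-0.46) were lower with sh2.

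Of the same 16 partners, 7 were lower in sh2 than in sh1, where 12.3% of all genes were lower. They had *Nploc4* (-0.62), *Pgrmc1* (-0.54), *2410131K14Rik* (-0.48) and *Ufd1* (-0.33) among them. Against ctrl sh, 3 of 16 were higher with sh1 (*Nploc4* at 0.37, *Vcp* at 0.34 and *Pgrmc1* at 0.29), against 3.06% of all genes, and 4 were lower with sh2 (*2410131K14Rik* at -0.76, *Ufd1* at -0.35, *Nploc4* at -0.25 and *Pgrmc1* at -0.25), against 9.48%. As with *Srebf1*, ctrl sh itself was above Uninjected for *Ufd1* (0.51), *Nploc4* (0.42) and *Pgrmc1* (0.39), and for *Sar1b* (0.45) and *Atf6b* (0.47), named next. Mean *Ufd1* was 38.0 CPM in Uninjected, 55.2 in ctrl sh and 42.9 in sh2, and mean *Sar1b* 21.9, 30.4 and 19.5 CPM. Of the 11 COPII genes, 2 were higher in sh2 than in ctrl sh (*Sec23a* at 0.32 and *Sec23b* at 0.25) and 1 lower (*Sar1b* at -0.63), against 8.59% and 9.48% of all genes. Between the hairpins 1 of 11 was lower in sh2 (*Sar1b* at -0.87), and with sh1 1 of 11 was higher than in ctrl sh (*Sec23a* at 0.28). Of 14 sterol transport genes, 3 were lower with sh2 than with ctrl sh, *Gramd1b* (96.5 to 43.9 CPM, -1.12), *Osbpl1a* (-0.42) and *Osbpl2* (-0.26). Of 8 protease substrates, 1 was lower (*Atf6b* at -0.35) and 1 higher (*Creb3l2* at 0.34) with sh2, and of 7 LXR genes 2 were lower (*Abca1* at -0.36 and *Rxra* at -0.28). Of 15 chaperones and foldases, 1 was higher with sh1 (*Dnajc3* at 0.22) and 1 lower with sh2 (*Dnajb9* at -0.52). Between the hairpins, 4 of the 14 sterol transport genes, 4 of the 7 LXR genes, 3 of the 15 chaperones and foldases and 1 of the 8 protease substrates were lower in sh2, against 12.3% of all genes, and 1 chaperone or foldase gene was higher (*Manf* at 0.31), against 10.2%.

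Genes most like each member were named by Pearson's correlation of log2(CPM + 1) over the 18 libraries, among 10267 other genes with a mean of at least 10 CPM. The libraries share their groups, so r was also computed on deviations from the group means. *Insig1* was most like *Scd1* (r = 0.977), *Lss* (0.968) and *Stard4* (0.961), and *Stard4* most like *Scd1* (0.978), *Cyp51* (0.977) and *Acly* (0.974). *Srebf2*, whose counts in nSREBP2 cannot be separated from the RNA of the vector, was most like *Dhcr7* (0.974), *Cyp51* (0.955) and *Msmo1* (0.954). On deviations these fell to 0.421, 0.124 and 0.461 for *Insig1*, and to 0.392, 0.668 and 0.515 for *Stard4*, and were 0.729, 0.480 and 0.737 for *Srebf2*. *Srebf1* was most like *Adrm1* (0.969), *Tmem205* (0.967) and *Psmd1* (0.962), and its r with *Srebf2* was 0.13, or 0.598 on deviations. *Scap* was most like *Pigz* (0.934), *Bsg* (0.933) and *Col8a1* (0.931), *Mbtps1* most like *Zfp423* (0.897), *Gatad2b* (0.881) and *Amz2* (0.878), and *Mbtps2* most like *Rnf14* (0.931), *Cisd1* (0.921) and *Psmc2* (0.921). On deviations these were 0.663, 0.633 and 0.612 for *Srebf1*, and 0.724, 0.746 and 0.717 for *Scap*. They were 0.796, 0.650 and 0.488 for *Mbtps1*, and 0.772, 0.803 and 0.640 for *Mbtps2*.

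*Insig2* was the exception, since its leading gene, *Il10rb*, had r = 0.917 over the libraries and 0.942 on deviations, where it also led. The next were *Tyrp1* (0.850, and 0.855 on deviations), a gene of pigment synthesis, and *Selenop* (0.827, and 0.879 on deviations). *Ednrb*, of the melanocyte list, was the third by deviations (0.919). The *Insig2* level was highest in Uninjected replicate 3 (76.3 CPM), the library with the highest sums of RPE genes (15931 CPM) and of melanocyte genes (1620 CPM). The part of these cells in the level of *Insig2* was not tested. Among the members, *Srebf1*, *Scap* and *Mbtps2* moved together over the 18 libraries (r = 0.790 between *Srebf1* and *Scap*, 0.848 between *Srebf1* and *Mbtps2*, and 0.805 between *Scap* and *Mbtps2*). *Insig1*, *Stard4* and *Srebf2* were alike over the libraries (r = 0.961 between *Insig1* and *Stard4*, 0.954 between *Insig1* and *Srebf2*, and 0.938 between *Stard4* and *Srebf2*). On deviations the values were 0.718, 0.509 and 0.447 for the first 3 pairs and 0.461, 0.490 and 0.422 for the latter, which are all highest in nSREBP2.

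Because *Insig1* was higher with nSREBP2 and *Srebf1* separated the hairpins, a promoter stretch of each is shown. RefSeq windows on GRCm38.p6, from 250 bases before to 50 after a transcription start, were found for 7 of the 8 genes (12 windows). Both strands were searched for TCACNCCAC (a core of the sterol regulatory element), CACGTG (E-box), CCAAT and GGGCGG, which do not overlap in the sequences printed. Of all 32851 windows, 1.24% hold the first, 7.15% the E-box, 37.4% CCAAT and 35.7% GGGCGG. Among the 12 windows, the E-box was found in that of *Insig1* and in both of *Scap*, which overlap and hold the same match, CCAAT was found in 5 and GGGCGG in 9, and TCACNCCAC in none, which says only that these letters are not in these windows. The sequences below end before the annotated gene begins, run 5′ to 3′ on the strand of the gene, and carry matches on either strand in capitals. They are from *Insig1* (chr5:28071162-28071362, plus strand) and the most upstream start of *Srebf1* (chr11:60222582-60222831, minus strand). *Srebf1* windows 2 and 3, at starts inside the gene, are not printed. Window 2 holds 3 matches to GGGCGG, and window 3 holds 2 to GGGCGG and 1 to CCAAT. A match is a description of the sequence, not a site.
*Insig1*: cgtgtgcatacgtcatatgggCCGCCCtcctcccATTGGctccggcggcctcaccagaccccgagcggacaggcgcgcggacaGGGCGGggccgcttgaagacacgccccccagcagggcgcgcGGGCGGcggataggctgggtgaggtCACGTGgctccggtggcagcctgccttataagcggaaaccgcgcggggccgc
*Srebf1*: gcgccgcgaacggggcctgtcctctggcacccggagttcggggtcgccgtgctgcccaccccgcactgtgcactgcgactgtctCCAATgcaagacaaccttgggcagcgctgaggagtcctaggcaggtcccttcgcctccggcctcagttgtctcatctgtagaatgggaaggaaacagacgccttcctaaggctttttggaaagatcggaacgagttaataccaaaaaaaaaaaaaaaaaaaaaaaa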

How the data were processed

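RNA-seq counts of mouse RPE were used as deposited. The authors aligned reads to GRCm38 with STAR and deposited a count per gene and library. All 52636 genes and 18 libraries entered the normalization. Each comparison was fitted on its 3 + 3 libraries with edgeR 4.0.16 (filterByExpr, TMM, quasi-likelihood F test) in R 4.3.3, with Benjamini-Hochberg adjustment over all genes tested, and passing means an adjusted *P* under 0.05. The test over 6 groups and the tests between effects used all 18 libraries. DESeq2 1.42.0, its size factors, no filter, all 18 libraries, sex, replicate number, each library left out and the study's fold limit were alternatives. The tools were tested on simulated data. Levels are CPM with TMM factors over the 18 libraries, and values per kb use merged exons of the GENCODE annotation. Sex was read from Y-linked genes. Total counts ranged from 8921885 to 13696934. A count of 0 allows up to 3 counts.

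Genes are named by this rule: the 8 members and *Lrp2*, the 3 genes most like each member, up to 4 passing genes with the largest change per context list and comparison, and markers of cell types. Some genes that meet this rule are not reported here. The lists have no test of their own. The members and lists were chosen with earlier results of these data known. *Stard4* has no promoter printed here. Motifs were searched in RefSeq promoter windows. Protein levels and cleavage of SREBPs were not analysed here.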

Additional observations from a re-analysis of the deposited data

Results flagged for a closer look

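For 7 results, an interaction test found that 2 effects on the same gene differed, and this difference between effects is what set them apart. The effect of nSREBP2 (over GFP) exceeded that of *Lrp2* sh1 (over ctrl sh) by a log2 value of 1.12 for *Srebf2*, 2.17 for *Insig1* and 1.86 for *Stard4*. It exceeded that of *Lrp2* sh2 by 0.74 for *Srebf1*, 1.22 for *Srebf2*, 2.69 for *Insig1* and 2.06 for *Stard4*. The inserts, the controls and the sex of the mice differ between these effects, and the *Srebf2* values include RNA of the vector. With sex as a term the values for *Insig1* were 2.13 and 2.68.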

How the results depend on the processing

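The 3 genes higher in nSREBP2 than in GFP, *Srebf1* with *Lrp2* sh1, *Srebf1*, *Insig1* and *Scap* with *Lrp2* sh2, and the 4 genes that separated the hairpins passed in the same direction under every alternative fit and with each library left out. Groups of 3 libraries can miss small changes, and only 2 groups hold both sexes. Replicate numbers are shared only as numbers: 0, 0, 0, 3, 0 and 4 of 6 libraries correlated best with their own number in the comparisons as ordered in the report's tests (nSREBP2, sh1, sh2, GFP, ctrl sh, sh2 over sh1). As a block they left 492 genes for sh1 and 244 for ctrl sh over Uninjected, where *Srebf1* was lost (adjusted *P* = 0.0647). The cause of the changes listed here was not tested.

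With an absolute log2 fold change above 1, genes passing were 1195 for nSREBP2, 177 for sh1 (members 0), 861 for sh2 (members 0), 251 for GFP, 426 for ctrl sh (members 0) and 922 for sh2 over sh1 (members 1). With DESeq2, 842 passed for GFP, and 2 members for ctrl sh (*Srebf1* and *Mbtps2*). Without a filter, 1441 passed for sh1, 1093 for GFP and 1736 for ctrl sh (members 2). With all 18 libraries, 1722 passed for GFP (members 1, *Mbtps1*) and 2870 for ctrl sh (members 3). With sex, 2178 passed for nSREBP2, 1225 for GFP and 2456 for ctrl sh (members 2). Leave-one-out gave 2481 to 4097 genes for nSREBP2, 364 to 1298 for sh1, 2019 to 2727 for sh2, 66 to 740 for GFP, 140 to 998 for ctrl sh (members 0 to 1) and 2626 to 3705 for sh2 over sh1. *Mbtps1* passed between the hairpins with DESeq2 (adjusted *P* = 0.0485) and all 18 libraries (adjusted *P* = 0.0461).

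Signs turned only for log2 fold changes near 0 that never passed. *Insig2* was 0.00162 with DESeq2 and 0.00148 with its size factors for nSREBP2. With sex, it was 0.0244 for ctrl sh, -0.100 for sh2 over sh1, and -0.133 and -0.0332 for the nSREBP2 effect minus those of sh1 and sh2. Leave-one-out ranges were -0.0479 to 0.0375 (*Insig2*, nSREBP2), -0.0717 to 0.0385 (*Srebf2*, sh1), -0.0526 to 0.0325 (*Scap*, sh1), -0.100 to 0.0624 (*Insig1*, sh1), -0.0405 to 0.0746 (*Mbtps2*, sh1), -0.0194 to 0.0368 (*Mbtps1*, sh2), -0.0697 to 0.134 (*Srebf2*, GFP), -0.207 to 0.00129 (*Scap*, GFP), -0.157 to 0.136 (*Insig1*, GFP), -0.116 to 0.224 (*Insig2*, GFP), -0.191 to 0.150 (*Insig2*, ctrl sh), -0.0131 to 0.0735 (*Mbtps1*, ctrl sh) and -0.00392 to 0.0839 (*Insig2*, sh2 over sh1).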
